A study of Mus musculus with 4 samples.

Results

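The core mucus proteins of the goblet cell are described here through the genes of 5 secreted products, Muc2, Fcgbp, Clca1, Zg16 and Tff3, which are 5 of the 55450 genes in the tables and were picked by symbol. Their RNA was followed in goblet cells, defined as cells in which the 5 genes together made up at least 1% of the unique molecular identifiers (UMIs, each standing for one captured RNA molecule), and in cells of other types below that limit. The rule gave 2194 goblet cells among 42448 kept cells.

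Mid-colon was taken from specific-pathogen-free mice aged 7 weeks. Animals of one group were given 3% dextran sulfate sodium (DSS), an agent that injures the colonic lining, in their water for 2 days, and animals of the other were given plain water for the same time. Each group had 2 libraries of dissociated single cells, called control 1, control 2, DSS 1 and DSS 2 below. The labels give no strain, sex or number of mice per library, so the spread between libraries may be partly technical.

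Goblet cells secrete the gel that separates the colonic surface from the bacteria of the lumen. MUC2, the gel-forming mucin, is packed into granules as disulfide-linked polymers that unfold into a net when released. FCGBP is a large secreted protein that is bound up with this net, CLCA1 is a secreted metalloprotease that processes the mucus, ZG16 is a small lectin that binds Gram-positive bacteria, and TFF3 is a trefoil peptide that supports repair of the epithelium.

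Muc2, Fcgbp and Zg16 lie on chromosome 7 of the mouse genome (build GRCm38, GENCODE annotation). Muc2 (ENSMUSG00000025515) spans chr7:141690340-141754693 on the plus strand, Fcgbp (ENSMUSG00000047730) spans chr7:28071236-28120862 on the plus strand, and Zg16 (ENSMUSG00000049350) spans chr7:127050156-127087328 on the minus strand. Clca1 (ENSMUSG00000028255) spans chr3:145003817-145032776 and Tff3 (ENSMUSG00000024029) spans chr17:31125306-31129646, both on the minus strand. Zg16 was the only member overlapped by other annotated genes, the opposite-strand Gm44939 and Gm22747, and both had 0 UMIs.

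RefSeq promoter sequences (build GRCm38.p6) were matched for 2 of the 5 members, Muc2 and Fcgbp. They are printed because these are the polymer and a protein bound up with it. Each line gives the 250 bases before the annotated start, 5′ to 3′ on the plus strand, with matches on either strand in capitals. The motifs searched were the E-box form CAGCTG, the core promoter motif TATAA and the GATA-factor motif GATAA. The windows are chr7:141690090-141690339 for Muc2 and chr7:28070986-28071235 for Fcgbp.
Muc2: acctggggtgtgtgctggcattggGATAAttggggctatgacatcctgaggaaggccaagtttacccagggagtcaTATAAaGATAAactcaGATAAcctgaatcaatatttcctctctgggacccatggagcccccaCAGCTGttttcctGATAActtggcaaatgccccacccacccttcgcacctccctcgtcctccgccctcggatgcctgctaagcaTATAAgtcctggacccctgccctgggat
Fcgbp: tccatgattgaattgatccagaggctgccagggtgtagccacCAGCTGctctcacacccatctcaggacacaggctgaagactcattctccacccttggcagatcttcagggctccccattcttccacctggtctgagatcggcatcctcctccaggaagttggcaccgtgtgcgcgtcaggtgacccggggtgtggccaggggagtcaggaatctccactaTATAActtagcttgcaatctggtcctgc
Both windows held TATAA with its first base at position -28 from the start, and Muc2 held it again at -174. CAGCTG occurred 1 time in each, at -112 in Muc2 and -208 in Fcgbp. GATAA occurred 4 times in Muc2 and 0 times in Fcgbp. Over all 32851 promoters of this length, 22.8% held TATAA, 13.0% held CAGCTG and 22.6% held GATAA, so each match is common and is given as a description of the sequence.

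The libraries were of similar depth but held different mixes of cells. After filtering, 9039 to 11591 cells per library remained with a median of 4731 to 6298 UMIs, where the labels state a capture of 5000 cells per library, and 36 to 52 barcodes were shared by each pair of libraries, with 0 shared between goblet cells. Goblet cells were deeper, with a median of 19798 and 19437 UMIs in control 1 and 2 and of 23224 and 22222 in DSS 1 and 2. All 12 goblet markers that are not members were above their level over all kept cells in the goblet cells of each library, with a summed level of 34895 and 38745 CPM (a gene's UMIs scaled to a common library total) in controls and 18028 and 19905 CPM in DSS, so the cells carried their label. Absorptive colonocyte markers were present in goblet cells at a summed 900 and 2733 CPM in controls and 3466 and 6716 CPM in DSS, and plasma cell markers at 323, 1445, 7439 and 2073 CPM in the same order. Their part in the results below was not tested.

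Goblet cells made up 12.1% of the kept cells of control 1 (95% Wilson interval 11.4 to 12.8, counting error only), 3.93% of control 2 (3.57 to 4.33), 3.21% of DSS 1 (2.90 to 3.54) and 2.82% of DSS 2 (2.54 to 3.14). Control 1 stood apart from the other 3 libraries. The means were 8.01% ± 5.77 (SD, n = 2) for controls and 3.01% ± 0.272 for DSS, and the test could not separate them (two-sided exact permutation p = 0.33, the smallest that 2 against 2 can give). Without control 1 the log2 ratio of DSS to control was -0.38, against -1.41 with it.

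The limit separated most goblet cells from the rest but cut through a thin zone. Between 1% and 1.5% lay 204 cells, 68.1% of them in the goblet clusters, and between 0.75% and 1% lay 139 cells, 46.0% of them in those clusters. Goblet cells held 96.5%, 87.4%, 96.2% and 94.0% of all UMIs of the 5 genes in control 1, control 2, DSS 1 and DSS 2. Of the cells picked by the rule, 3.29%, 13.2%, 12.9% and 6.12% lay outside both goblet clusters in the same order, and 62 of them were in plasma cell clusters, with a median of 992 UMIs.

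Within goblet cells the 5 genes took 4.88% and 3.50% of all UMIs in the controls and 9.66% and 4.65% in DSS. DSS 1 was high, whereas DSS 2 lay just under control 1, so the groups overlapped (means 4.19% ± 0.971 and 7.16% ± 3.54, SD, n = 2). The sum chose the cells, so its level is a description and was not tested. The highest single cell gave 40.4% of its UMIs to the 5 genes, in control 1.

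Muc2 was the most abundant member of the control goblet cells and the steadiest of the 5. It stood at 25369 and 27025 CPM in control 1 and control 2, and at 18521 and 18730 CPM in DSS 1 and DSS 2. Both DSS libraries lay below both controls, as they did for 26.9% of the 13089 genes tested. The fitted change was small next to its error (log2 fold change -0.35 ± 0.604 SE, edgeR quasi-likelihood adjusted p = 0.867). Muc2 UMIs were found in at least 99.2% of the goblet cells of every library. As Muc2 is itself part of the sum that chose the cells, its level and detection there are partly set by the rule. In the 511, 124, 317 and 164 cells chosen by the 4 other members it was at 24036 and 25095 against 18654 and 14965 CPM (-0.50 ± 0.615, edgeR adjusted p = 0.816).

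Zg16, the bacteria-binding lectin, was several times higher in both DSS libraries than in either control. Its level was 2666 CPM in control 1 and 184 in control 2, against 15466 in DSS 1 and 14737 in DSS 2 (means 1425 ± 1755 and 15102 ± 516, SD, n = 2). Such a separation was seen for 12.4% of the genes tested, and the 2 controls differed from each other by far more than the 2 DSS libraries did. The log2 fold change was 3.43 ± 1.26 and did not pass over all genes (edgeR adjusted p = 0.335, unadjusted p = 0.0340). The share of goblet cells with a Zg16 UMI was 43.1% and 10.4% in controls and 87.9% and 77.1% in DSS. With each cell thinned to 1000 UMIs, the shares were 12.0%, 2.90%, 59.9% and 55.1% over the 1084, 379, 349 and 321 cells deep enough.

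Tff3, the trefoil peptide, followed the same order of libraries. It was at 1185 CPM in control 1 and 190 in control 2, against 9460 in DSS 1 and 4872 in DSS 2, with no overlap of the groups. The log2 fold change was 3.47 ± 1.04 (edgeR adjusted p = 0.262, unadjusted p = 0.0153). After thinning, 18.5% and 7.65% of control goblet cells and 72.8% and 52.3% of DSS goblet cells held a Tff3 UMI.

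Whether these 2 genes passed differed between fits. With no filter on low counts Zg16 and Tff3 passed at an edgeR adjusted p of 7.84e-07 and 9.86e-09, with log2 fold changes of 3.39 and 3.43, in a fit that called 4.55% of 25162 genes, while DESeq2 gave an adjusted p of 0.159 and 0.124. Leaving out any one library kept the log2 fold change of Zg16 between 2.50 and 6.61 and that of Tff3 between 2.64 and 5.54.

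Fcgbp and Clca1 followed 1 library rather than a group. Fcgbp, the net-bound protein, was at 6199 and 2447 CPM in controls and at 18207 and 2851 in DSS. Clca1, the metalloprotease, was at 13339 and 5180 CPM in controls and at 34950 and 5324 in DSS. DSS 1 was the highest library for both, and DSS 2 lay between the 2 controls for both. Their log2 fold changes of 1.48 ± 1.05 and 1.31 ± 1.09 did not pass (edgeR adjusted p = 0.621 and 0.679), and without DSS 1 both turned to -0.70 and -0.90.

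Over all genes in goblet cells, edgeR called 0 of 13089 (0%), with 1712 at an unadjusted p under 0.05 and 397 (3.03%) called by DESeq2, so the 0 of 5 members called are no fewer than among all genes.

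**Figure D1:**
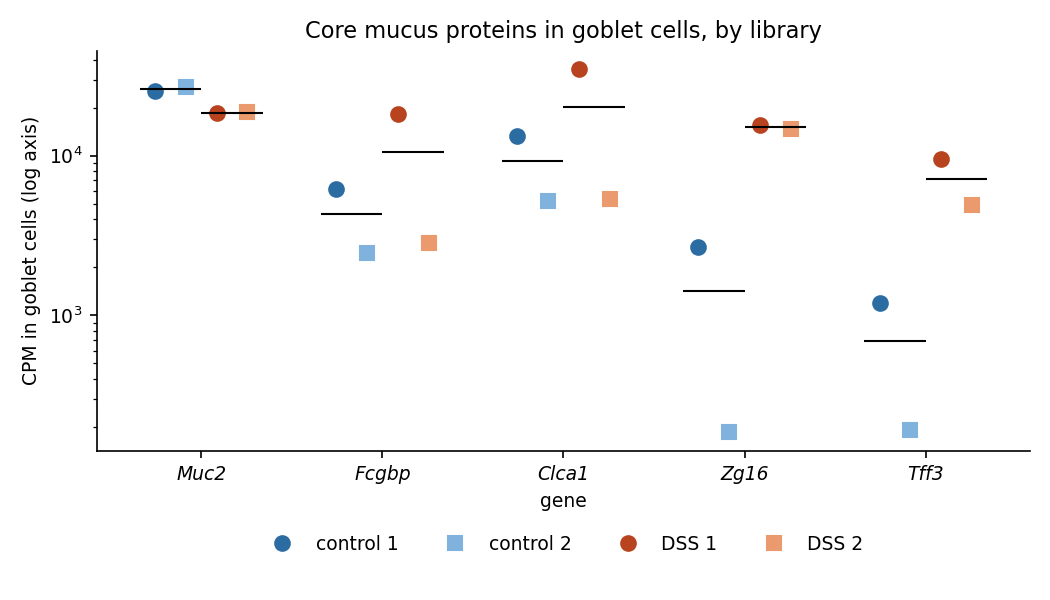
Level of each member in goblet cells in CPM (log axis), 1 point per library, with bars at the mean of each group of 2. Zg16 and Tff3 lie higher in both DSS libraries than in both controls, Muc2 lies lower, and for Fcgbp and Clca1 only DSS 1 lies above both controls.

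The make-up of the mucus RNA differed between libraries with these levels. Each member's share of the UMIs of the 5 genes was used for this, since choosing cells on the sum does not fix it, and since the kit counts molecules at their 3′ end the shares are not scaled by gene length. Muc2 made up 52.0% and 77.2% of the sum in controls and 19.2% and 40.3% in DSS. Zg16 made up 5.47% and 0.527% in controls and 16.0% and 31.7% in DSS, and Tff3 made up 2.43% and 0.543% against 9.79% and 10.5%.

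For these 3 genes the groups did not overlap (two-sided exact permutation p = 0.33 each, the smallest possible). A split of this kind is thus common by the labels alone. The shares add up to the whole sum, so the 3 are not separate results. Fcgbp held 12.7%, 6.98%, 18.8% and 6.13% of the sum in control 1, control 2, DSS 1 and DSS 2, and Clca1 held 27.4%, 14.8%, 36.2% and 11.4%. In both, DSS 1 was the highest and DSS 2 the lowest library (exact permutation p = 1).

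The gene that led a cell differed in the same way. Muc2 had the most UMIs of the 5 in 73.1% and 88.1% of control goblet cells and in 18.9% and 64.2% of those of DSS 1 and DSS 2. Clca1 led in 63.9% of the cells of DSS 1, against 8.93% to 22.9% elsewhere, and Zg16 led in 23.9% of those of DSS 2, against 1.74% to 9.16% elsewhere. All 5 genes were detected together in 26.3% and 5.96% of control goblet cells and in 79.8% and 56.6% of DSS goblet cells, at the unequal depths given above.

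Goblet cells fell into 2 clusters although the 5 genes were kept out of the clustering. The larger was led by Spink4, Agr2 and Retnlb, and the smaller by Ang4, Spink1 and Sval1, and all 12 goblet markers were detected in each. The smaller cluster held 204 and 4 cells of the controls and 200 and 21 cells of DSS 1 and DSS 2, which was 18.7%, 0.993%, 53.6% and 6.12% of the goblet cells chosen by the rule. In the smaller cluster the 5 genes took 10.4% of UMIs in control 1, 13.1% in DSS 1 and 10.4% in DSS 2, and in the larger one they took 3.38% to 5.57% over the 4 libraries.

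In control 1, the control library that held both clusters in number, 4 of the 5 members were several times higher in the smaller one and Muc2 was not. There, Clca1 was at 43562 CPM in the smaller cluster and 7081 CPM in the larger one, and Fcgbp was at 19107 against 3507 CPM. Muc2 was at 24777 CPM in the smaller cluster and 24767 CPM in the larger one. Zg16 was at 11873 against 793 CPM and Tff3 at 4710 against 485 CPM. In DSS 1, with 200 cells in the smaller cluster and 135 in the larger one, all 5 members were higher in the smaller one. Muc2 was there at 21304 against 15262 CPM, Clca1 at 49677 against 17172 CPM and Fcgbp at 25102 against 9661 CPM. Zg16 was at 21487 against 8324 CPM and Tff3 at 12973 against 5244 CPM in that library.

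The gap of Zg16 and Tff3 between the groups was also present inside the larger cluster alone, a view chosen after the data were seen. There Zg16 was at 793 and 132 CPM in controls and at 8324 and 12437 in DSS (log2 fold change 4.45 ± 0.924, edgeR adjusted p = 0.102). Tff3 was at 485 and 189 CPM in controls and at 5244 and 3936 in DSS (3.77 ± 0.597, adjusted p = 0.0617). Muc2 was at 24767 and 26116 against 15262 and 17162 CPM (-0.62 ± 0.462, adjusted p = 0.572). Of 13104 genes tested there 59 were called (0.45%), and none of the 5 members was among them. Both DSS libraries lay above both controls for 20.6% of those genes and below both for 26.2%. In the smaller cluster Zg16 was at 21487 CPM in DSS 1 and 32821 CPM in DSS 2, next to the 11873 CPM of control 1.

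**Figure D2:**
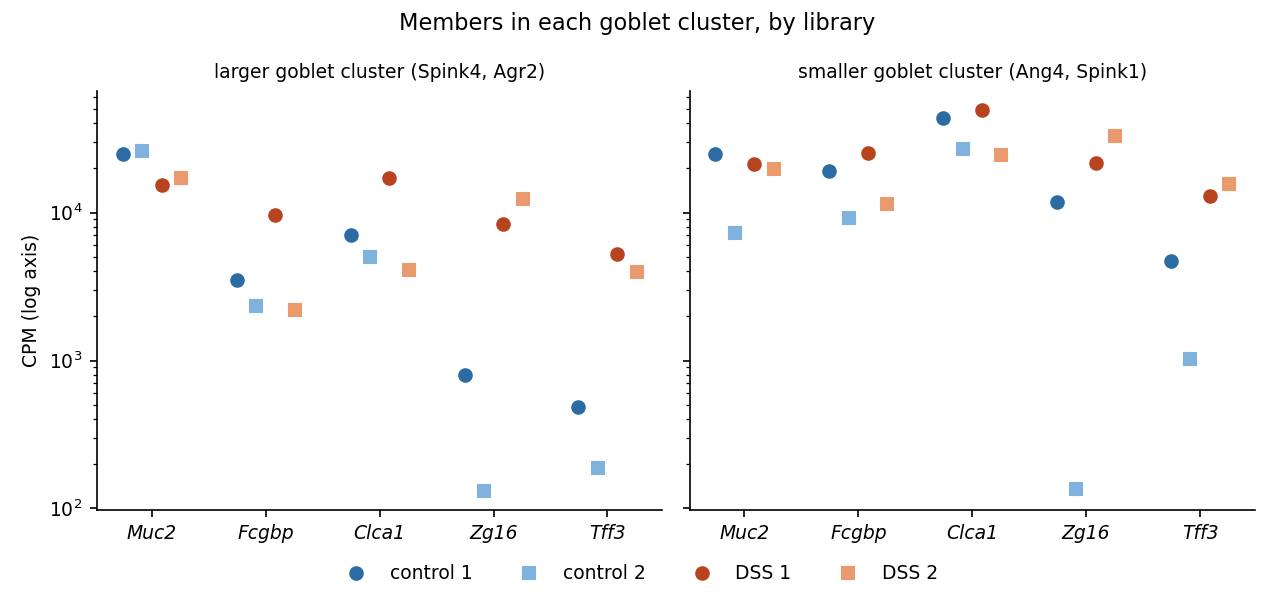
Level of each member in CPM (log axis) in the larger and the smaller goblet cluster, 1 point per library. In the larger cluster Zg16 and Tff3 lie well above both controls in both DSS libraries, and the control 2 point of the smaller cluster rests on 4 cells.

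The make-up also followed how much of its RNA a cell gave to mucus. With the libraries pooled, 17.7% of goblet cells gave 1 to 2% of their UMIs to the 5 genes, 41.8% gave 2 to 5%, 26.1% gave 5 to 10%, 11.3% gave 10 to 20% and 3.05% gave 20% or more. Muc2's share of the sum was 75.4% in the lowest of these classes and 11.5% in the highest. Zg16's share was 2.54% in the lowest and 36.8% in the highest, and Tff3's was 2.82% and 13.8%. Within each library the highest class that held cells had less Muc2 and more Zg16 than the lowest, but in controls the share of Zg16 was not higher at every step. It was 0.369%, 0.302%, 1.52%, 12.9% and 36.9% over the 5 classes of control 1, and 1.14%, 0.209%, 0.165% and 3.99% over the 4 classes of control 2.

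These are descriptions, since the classes were made from the same UMIs, and control 2 had no cell at 20% or more. The difference between libraries was present inside a class as well: in cells at 2 to 5%, Zg16 held 0.302% and 0.209% of the sum in controls and 5.47% and 18.6% in DSS. Mki67, a marker of dividing cells that is no member, was at 97.9 CPM in the lowest class and at 2.30 CPM in the highest, with the libraries pooled. From the lowest to the highest class it went from 83.4 to 7.27 CPM in control 1, 125 to 1.16 in DSS 1 and 100 to 0 in DSS 2. Control 2 differed, with 115, 72.3, 37.8 and 144 CPM over its 4 classes, the last holding 25 cells.

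**Figure D3:**
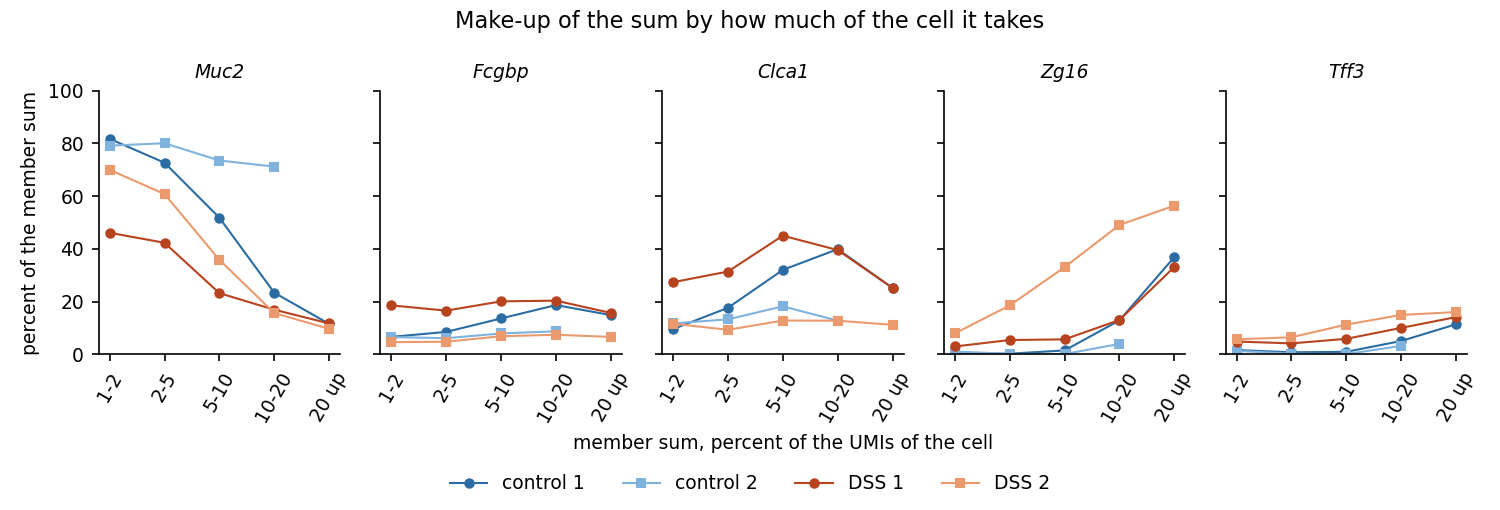
Share of each member in the UMIs of the 5 genes (percent) against the member sum of the cell in classes (percent of its UMIs), 1 line per library. In each library Muc2's share is lower and Zg16's higher in the highest class with cells than in the lowest. In the controls Zg16's share is not higher at every step, and control 2 has no cells in the top class.

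From cell to cell, Fcgbp and Clca1 kept closest together. Their Spearman correlation over the goblet cells of a library was 0.685 to 0.921 over the 4 libraries, on values that share each cell's depth. Zg16 and Tff3 correlated at 0.292 to 0.761. Muc2 did not follow the others steadily, with a range of -0.234 to 0.656 against Fcgbp and of -0.343 to 0.626 against Clca1. The cells were chosen on the sum of these same genes. Such a choice can lower correlations between parts of the sum, most of all for its largest part, so these values are descriptions.

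Other goblet genes gave the setting for these values. Of the 6 lists of goblet and mucus genes, 0 genes rose and 0 fell by edgeR, as for all genes, whose median log2 fold change was 0.01 with 50.6% above 0. DESeq2, which called 3.03% of all genes, called genes in 5 of these lists, as given with each. EdgeR with no filter on low counts called 4.55% of 25162 genes. It called 1 secreted product higher and 3 lower, and 0 O-glycosylation enzymes higher and 2 lower. It called 0 genes of fate and folding higher and 1 lower, and 1 membrane mucin higher and 1 lower. Its calls in the other lists are given below. Among 15 tested secreted products other than the members, 5 lay higher and 10 lower in DSS (median -0.18), and DESeq2 called 1 higher and 3 lower. The median turned to 0.19 without control 1 and to 0.23 without DSS 2. Spink4, a secreted protease inhibitor family member, was at 20630 and 25968 CPM in controls and at 8863 and 9014 in DSS (log2 fold change -1.23), so both DSS libraries were lower. It did not pass by edgeR (adjusted p = 0.430) and was called by DESeq2 (-1.24, adjusted p = 0.000257). Agr2, the disulfide isomerase needed to make MUC2, was at 12469 and 10785 against 7434 and 9504 CPM (-0.35), and Retnlb, a bactericidal peptide, at 10362 and 7642 against 10291 and 3595 CPM (-0.18).

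Among 28 tested enzymes of mucin O-glycosylation, 7 lay higher and 21 lower (median -0.17), and DESeq2 called 0 higher and 1 lower. Gfpt1, the first enzyme of UDP-N-acetylglucosamine synthesis, was at 1057 and 1398 against 551 and 931 CPM (-0.61). St6galnac6, a sialyltransferase, was at 547 and 741 against 249 and 436 CPM (-0.80), and Galnt7, a mucin-type glycosyltransferase, at 560 and 505 against 406 and 467 CPM (-0.17). All 3 were lower in both DSS libraries, with edgeR adjusted p-values of 0.491, 0.339 and 0.862.

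Among 19 tested genes of granule secretion, 13 lay higher and 6 lower (median 0.59, and 0.14 without DSS 1). DESeq2 called none of them, and edgeR with no filter on low counts called 4 higher and 1 lower of the 20 tested there. Vamp8, a SNARE of granule release, was at 193 and 153 against 207 and 221 CPM (0.42), Scin, an actin-severing protein, at 248 and 79.7 against 490 and 179 CPM (1.17), and Tmed3, a cargo receptor, at 370 and 329 against 232 and 213 CPM (-0.52). Among 19 tested genes of goblet fate and folding, 5 lay higher and 14 lower (median -0.23), and DESeq2 called 0 higher and 1 lower. Klf4, a factor of terminal goblet differentiation, was at 579 and 1015 against 1036 and 1276 CPM (0.70), and Hspa5, the chaperone of the endoplasmic reticulum, at 723 and 1639 against 1073 and 1343 CPM (0.21). None of these passed (edgeR adjusted p from 0.448 to 0.884).

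Of 5 tested membrane mucins 3 lay higher (median 0.76, and 0.14 to 0.54 with 1 library left out), and DESeq2 called 1 higher and 1 lower, Muc13 and Muc4 (adjusted p = 0.0350 and 0.00481). Muc13 was at 467 and 648 CPM in controls and at 982 and 923 in DSS (0.94), Muc3 at 93.2 and 447 against 344 and 800 CPM (1.25), and Muc4 at 258 and 348 against 106 and 160 CPM (-1.07). Of 15 tested genes of mucus processing and ion supply 10 lay higher (median 0.67, and 0.0215 without control 1). DESeq2 called 1 higher and 1 lower, the latter Slc12a2 (adjusted p = 0.00238). EdgeR with no filter called 6 higher and 1 lower of the 16 tested there. Car2, a carbonic anhydrase, was at 373 and 296 against 520 and 624 CPM (0.88), and Slc12a2, the basolateral chloride importer and also a progenitor marker, at 457 and 469 against 188 and 172 CPM (-1.22). Slc26a3, the apical chloride-bicarbonate exchanger and also a colonocyte marker, was at 18.6 and 126 against 74.7 and 238 CPM (1.28). The edgeR adjusted p-values of these 6 genes ran from 0.186 to 0.577.

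The genes most like the member sum were sought over 68 sums of a cell class in a library, among 2705 genes with at least 50 CPM in goblet cells. By Pearson correlation of log2(CPM + 1), the nearest were Retnlb (0.949), Mptx1 (0.908), Clps (0.906), Ang4 (0.899), Atoh1 (0.868), Itln1 (0.859), Gm1123 (0.857) and Tpsg1 (0.855). Taken singly, Muc2 was nearest to Retnlb (0.969), Fcgbp and Clca1 to Ang4 (0.926 and 0.95), Zg16 to Fer1l6 (0.760) and Tff3 to Sval1 (0.805). Zg16 followed the sum least closely of the 5, at 0.668, while the others ran from 0.791 to 0.956. Each member is itself part of that sum, and Muc2 was its largest part in control goblet cells. This order is thus partly set in advance and is a description. Mptx1, a mucosal pentraxin, was the most abundant of the 8, at 100040 and 59234 CPM in control goblet cells and 103900 and 15830 CPM in DSS ones.

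RNA of the 5 genes was also counted in cells of other types. Droplets take up RNA that leaked from broken cells, and such free RNA keeps the proportions of its source within a library. In stromal cells (fibroblasts, muscle, endothelium, enteric nerve and related cells) with a sum under 1%, the 5 genes were at 624 and 413 CPM in the controls and at 367 and 151 CPM in DSS 1 and DSS 2. In immune cells they were at 628 and 518 CPM against 335 and 162 CPM. Both DSS libraries lay below both controls in each compartment, which is a description, since the limit is set on the same sum.

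Over all named types together the sum was 533 and 481 CPM in controls and 352 and 173 CPM in DSS (means 507 ± 36.5 and 263 ± 126, SD, n = 2). This did not follow the member RNA of the whole library: the 5 genes took 1.27%, 0.372%, 0.896% and 0.431% of the UMIs of all kept cells, so control 2 had the least of it and DSS 1 the second most. Without the limit of 1%, the sums of all types were 649, 583, 608 and 286 CPM, and the groups overlapped (exact permutation p = 0.667).

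**Figure D4:**
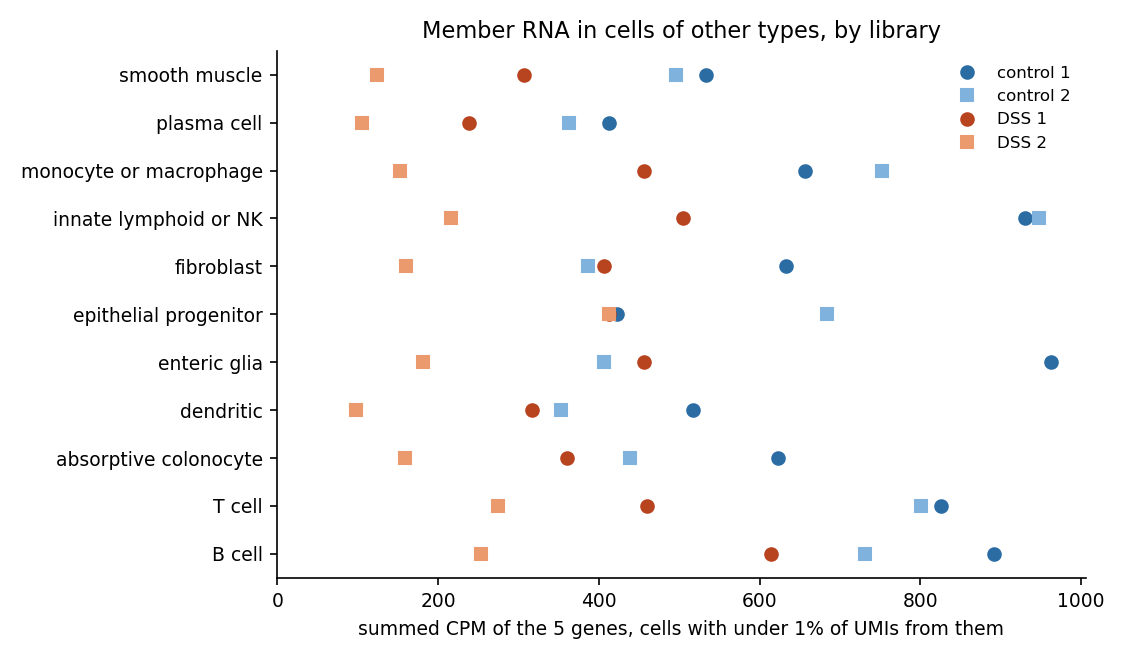
Summed CPM of the 5 genes in cells under the limit of 1%, for the 11 cell classes with enough cells in each library, 1 point per library. DSS 2 is the lowest library in all 11 classes, and DSS 1 lies below both controls in all but fibroblasts and enteric glia.

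The proportions of this RNA tracked the goblet cells of the same library. Muc2 made up 52.4%, 78.2%, 25.8% and 50.8% of the sum in stromal cells of control 1, control 2, DSS 1 and DSS 2, beside 52.0%, 77.2%, 19.2% and 40.3% in goblet cells. Zg16 made up 9.14%, 1.34%, 13.7% and 23.8% in stromal cells, and Tff3 4.10%, 1.72%, 9.25% and 10.4%. The libraries thus kept the same order for Zg16 in stromal as in goblet cells.

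In the sum over all named types outside goblet cells, Muc2 was the member with the lowest p. It was there at 262 and 291 CPM in controls and 87.4 and 68.2 CPM in DSS (log2 fold change -1.86, edgeR adjusted p = 0.439, unadjusted p = 0.00414). It was lower in all 11 classes tested, with log2 fold changes from -2.29 to -0.96 and edgeR adjusted p-values from 0.0620 to 1.00. Unadjusted p-values ran from 0.000126 to 0.0136. By edgeR it was called in none, at a background of 0% of genes in 9 classes, 0.026% in innate lymphoid or NK cells and 1.81% in epithelial progenitors, and in 0 to 2 of the 11 with 1 library left out. DESeq2 called Muc2 in 8 of the 11 classes. Of all genes tested in these classes, DESeq2 called 5.35% in absorptive colonocytes, 0.487% in dendritic cells, 0.26% in fibroblasts and 0.2% in plasma cells. It called 0.169% in innate lymphoid or NK cells, 0.0698% in monocytes or macrophages, 0.0509% in smooth muscle and 0.0474% in T cells. In the 3 classes where Muc2 was not called it called 2.3% (progenitors), 0.179% (B cells) and 0.083% (enteric glia) of genes. DESeq2 also called Muc2 in the sum of all types (-1.86, adjusted p = 0.00438), where it called 2.1% of genes. The classes share each library's free RNA and are not independent.

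None of the other 4 members passed over all types. Zg16 was at 63.5 and 64.3 CPM in controls and 52.9 and 56.1 CPM in DSS. Tff3 was at 41.3 and 39.6 against 36.5 and 25.8 CPM. In this sum over all types both DSS libraries thus lay below both controls for these 2 genes. Fcgbp was at 67.4 and 30.6 against 79.2 and 10.8 CPM and Clca1 at 98.2 and 55.2 against 96.0 and 12.5 CPM, and their groups overlapped. The log2 fold changes were -0.09 for Fcgbp, -0.48 for Clca1, -0.26 for Zg16 and -0.40 for Tff3 (edgeR adjusted p = 0.982, 0.888, 0.837 and 0.754). Without DSS 1, Clca1 was at -2.65 and passed (edgeR adjusted p = 0.0187, in a fit that called 0.885% of genes), and Fcgbp was at -2.21 and did not (0.0594). With all libraries 0% of 20670 genes were called, and both DSS libraries lay below both controls in 16.1% of them.

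Absorptive colonocytes, which line the crypt mouths and take up water, held another mix than stromal cells. In 4 of 4 libraries Zg16 and Tff3 had larger shares of the sum in colonocytes, and Muc2, Fcgbp and Clca1 had smaller ones. The shares add up to the whole sum, so these directions are not independent. How many of all genes differ in the same direction in every library was not counted. Muc2 made up 39.4%, 50.5%, 20.4% and 31.7% of the sum in colonocytes of control 1, control 2, DSS 1 and DSS 2, a mean difference from stromal cells of -16.3 percentage points ± 9.46 (SD, 4 libraries). For Fcgbp and Clca1 it was -1.63 ± 1.30 and -3.46 ± 1.99 points. Zg16 made up 21.8%, 22.9%, 20.1% and 37.4% of the sum there, in the same order. That was 13.6 percentage points ± 6.21 above stromal cells of the same library. Tff3 made up 10.9%, 10.5%, 16.7% and 18.6%, which was 7.80 points ± 0.854 above stromal cells. For each of the 5, the two-sided exact paired permutation test gave p = 0.125, the smallest that 4 pairs allow, and an adjusted p of 0.288 over 30 such tests.

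In CPM, Zg16 and Tff3 were higher in colonocytes in 4 of 4 libraries, Muc2 and Clca1 were lower in 4 of 4, and Fcgbp was higher in 1. Zg16 was at 136, 100.4, 72.6 and 59.4 CPM in colonocytes and at 57.0, 5.55, 50.3 and 36.1 CPM in stromal cells. The contrast was widest in control 2, whose goblet cells had the least Zg16 of the 4 libraries, at 0.527% of the sum. With cells thinned to 1000 UMIs, a Zg16 UMI was found in 10.7%, 6.28%, 7.19% and 6.54% of colonocytes and in 5.87%, 0.408%, 5.86% and 4.09% of stromal cells. Median depth was 5871 to 18552 UMIs in colonocytes and 3614 to 5292 in stromal cells before thinning. Over all colonocytes Zg16 itself was lower in DSS (log2 fold change -0.94, edgeR adjusted p = 0.118). DESeq2 called it (adjusted p = 0.0114) in a fit that called 5.35% of genes. The class joins clusters in unlike numbers. In the cluster led by Aqp8 the groups overlapped (121 and 47.7 against 70.5 and 65.5 CPM). In that led by Guca2a both DSS libraries were lower (144 and 192 against 103 and 129 CPM). In that led by Ly6g, with 25 cells in control 1, Zg16 was at 56.6 CPM in control 2 and at 58.6 and 55.1 CPM in DSS.

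**Figure D5:**
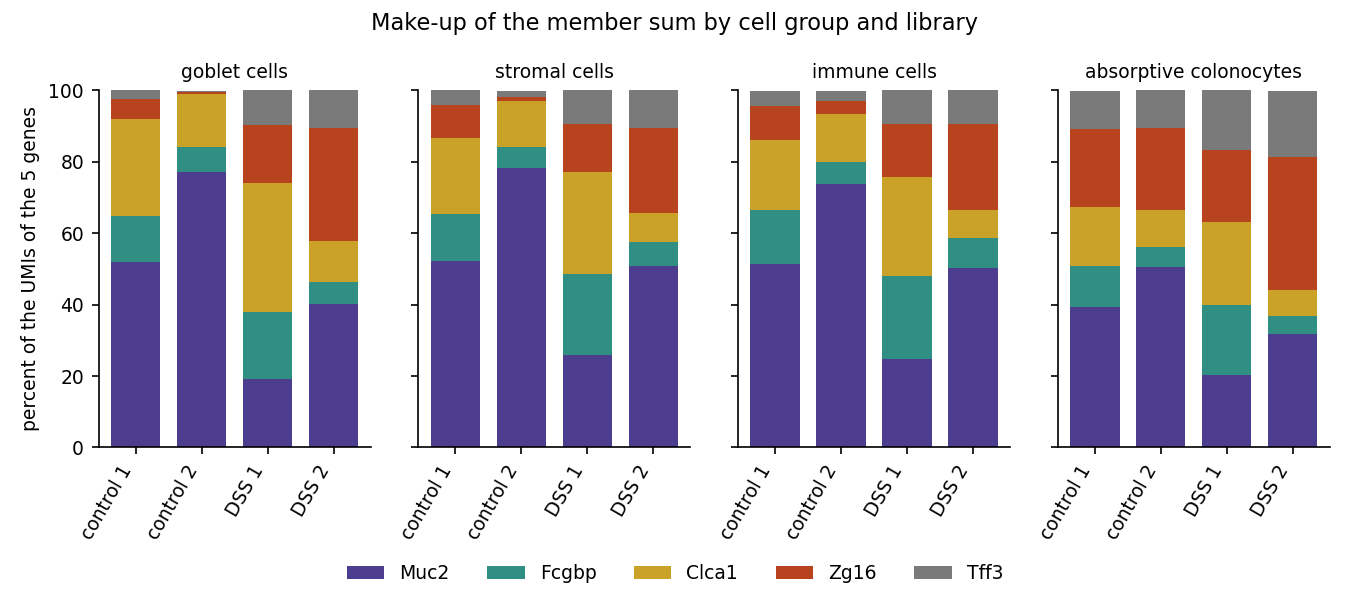
Share of each member in the UMIs of the 5 genes (percent) in goblet cells and, below the limit of 1%, in stromal cells, immune cells and absorptive colonocytes, 1 bar per library. Stromal and immune bars resemble the goblet bar of their library, while colonocytes hold more Zg16 and Tff3 and less Muc2 than stromal cells in all 4 libraries.

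Epithelial progenitors, the dividing cells of the crypt base, gave the 1 call among the 53 pairs of class and member tested. Zg16 was at 23.9 and 9.99 CPM in control progenitors and at 35.9 and 179 CPM in those of DSS 1 and DSS 2. It rose by a log2 fold change of 2.68 (edgeR adjusted p = 0.0380) in a class where 0.774% of 12793 genes rose. The high value was that of DSS 2, DSS 1 rested on 40 cells with 36 Zg16 UMIs, and without DSS 2 the value was 1.02 and did not pass. It also did not pass without control 1 or control 2 (3.62 and 2.13) or by DESeq2 (2.64), but not every alternative fit left it uncalled. As a mean over single cells Zg16 was at 26.8 and 10.9 CPM in controls and at 54.3 and 69.8 CPM in DSS. In DSS 2 the progenitor cluster led by Clca3b and Slc12a2 was at 427 CPM over 65 cells. The other progenitor cluster, with Top2a and Mki67 among its leading genes, was at 51.0 CPM over 90 cells there.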

How the data were processed

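Single-cell 3′ libraries (10x Genomics) of mid-colon were read from the deposited tables of UMI counts per gene and barcode, made by the authors with Cell Ranger 6.1.1 on build GRCm38, per the submitters' processing notes. The labels name different kit versions for capture and library. Cells were kept from 500 UMIs and 250 genes upward if mitochondrial UMIs did not exceed 25%, and doublets predicted by Scrublet in each library (3.03% to 5.38%) were removed, leaving 42448 of 49851 barcodes. Cells were clustered (Scanpy 1.11.5, Leiden 0.10.2) on 2000 variable genes without the 5 members, with 40 components, 20 neighbours and resolution 1. A cluster was named for the class with most markers, needing 3, each in at least 15% of its cells and 2-fold above the rest: 19 classes other than goblet were named, and 5 of 46 clusters stayed unnamed. Named classes with at least 30 cells per library were tested.

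Sums of counts over the cells of a class in a library were tested with edgeR 4.0.16 (quasi-likelihood, TMM, filterByExpr, Benjamini-Hochberg over all genes), with DESeq2 1.42.0 as an alternative, in R 4.3.3, and the fit was tested on simulated data. Standard errors are the fold change over the root of its F. Free RNA was not subtracted. Genes were named by rule: the 5 members, up to 6 passing genes per pathway list or else the 3 most abundant, and the 8 most like the sum. The members and lists were chosen with earlier results of these data known. The larger goblet cluster alone was added after seeing the data.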

Additional observations from a re-analysis of the deposited data

How the results depend on the processing

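In goblet cells, leaving out 1 library moved the log2 ratio of the goblet cell share between -2.005 and -0.38, of the member sum between 0.15 and 1.21, and of each member's share of the sum between -1.75 and -0.68 (Muc2), -0.68 and 0.94 (Fcgbp), -0.88 and 0.78 (Clca1), 2.12 and 5.50 (Zg16), and 2.06 and 4.22 (Tff3). The share of Clca1 also reversed at a limit of 5% (-0.0555). For the fitted changes these ranges were -0.53 to -0.22, -0.70 to 2.47, -0.90 to 2.32, 2.50 to 6.61 and 2.64 to 5.54 in the same order of genes. Zg16 and Tff3 passed with no filter on low counts (3.39 and 3.43). The 0 genes called by edgeR became 397 by DESeq2, 1146 with no filter on low counts, 5 at a limit of 5%, 59 in the larger goblet cluster and 0 to 53 with 1 library left out. Without scaling, the median of all genes moved to -0.12, and no member changed direction.

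Replicate numbers 1 and 2 occur in both groups, but the labels do not say that they pair samples, and deviations of same-numbered libraries correlated at 0.262 over 13089 genes in goblet cells and at 0.348 over 20670 genes in other types. With the replicate block, 302 genes (2.31%) passed in goblet cells, Tff3 among them (3.97, edgeR adjusted p = 0.0499). In other types 14 of 53 pairs of class and member passed with it, Muc2 in 9 of the 11 classes. The block also raised the calls over all genes, for example to 168 of 3917 in B cells, against 0 without it.

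In other types, the 1 called pair of class and member became 9 by DESeq2 and 0 to 10 with 1 library left out. With 1 library left out the fitted change over all types ran from -2.09 to -1.67 (Muc2), -2.21 to 0.73 (Fcgbp), -2.65 to 0.35 (Clca1), -0.37 to -0.15 (Zg16) and -0.71 to -0.15 (Tff3), and the log2 ratio of the member sum from -1.55 to -0.53. Muc2 passed by DESeq2 (-1.86). With cells over the limit of 1% kept in, Fcgbp, Clca1, Zg16 and Tff3 reversed to 0.46, 0.29, 0.27 and 0.14. Among other named genes in goblet cells, leaving out a library reversed Galnt7 (-0.38 to 0.0266), Hspa5 (-0.21 to 0.72) and Retnlb (-1.39 to 0.45), and Hspa5 reversed in the larger goblet cluster (-0.0573). The cause was not tested for any of these. Of 842 recomputed values, 755 counted as the same. For shares and sums that meant the same direction. For tested changes it also meant the same side of the threshold where an adjusted p was given, and for counts of calls an equal or similar number. Depth limits the thin classes: 4 cells of control 2 in the smaller goblet cluster and 40 progenitors of DSS 1.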
